A study of Mus musculus with 12 samples.

Results

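The 10 genes described here encode enzymes that make bile acids from cholesterol and conjugate them: *Cyp7a1*, *Cyp8b1*, *Cyp27a1*, *Cyp7b1*, *Hsd3b7*, *Akr1d1*, *Amacr*, *Acox2*, *Slc27a5* and *Baat*. They were chosen by name, and all 10 were found among the 25676 genes of the deposited table. Expression had been measured by RNA sequencing of whole liver from 12 C57BL/6 mice, stated to be 3 to 4 months old. The 6 knockout mice (KO) lacked *Yap1* through Cre recombinase driven by *Foxa3*, labelled Foxa3-Cre YAP1 KO, and the 6 wild-type mice (WT) are labelled only as WT, with no statement on Cre or floxed alleles. Each genotype had 3 males and 3 females, so there were 4 groups of 3 libraries, 1 from each mouse. *Foxa3*-driven Cre acts in embryonic foregut endoderm, the source of both hepatocytes and bile duct cells, so the deletion is not limited to 1 of these cell types. Time of day at collection and feeding state are not given in the labels. Values are in TPM, transcript abundance corrected for gene length and scaled to the same total in every library.

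Bile acids are made in hepatocytes by 2 routes. In the neutral route, CYP7A1 starts the conversion of cholesterol and sets its rate, and CYP8B1 adds the hydroxyl group that separates cholic acid from the other primary bile acids, the chenodeoxycholic and muricholic acids. In the acidic route, CYP27A1 oxidises the sterol side chain in mitochondria and CYP7B1 then hydroxylates the ring of the resulting oxysterols. Both routes share the ring changes made by HSD3B7 and AKR1D1, and both use CYP27A1 on the side chain. They also share the side-chain shortening in peroxisomes that needs AMACR and ACOX2. SLC27A5 activates bile acids with coenzyme A, and BAAT joins activated bile acids to taurine or glycine. Bile acids lower *Cyp7a1* and *Cyp8b1* through the nuclear receptor FXR (*Nr1h4*), its target SHP (*Nr0b2*) in the liver, and a signal from the gut that acts on FGFR4 and its partner beta-Klotho (*Klb*).

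RefSeq promoter windows on build GRCm38.p6 were matched for 5 of the 10 members, namely *Cyp27a1*, *Akr1d1*, *Hsd3b7*, *Cyp8b1* and *Acox2*, the last with 2 start sites. The 250 bases before each start were searched on both strands for AAGGTCA (a half-site bound by LRH-1, the product of *Nr5a2*), CAAAGTCCA (bound by HNF4A) and CATTCC (the core bound by TEAD factors, the DNA-binding partners of YAP1). The *Cyp8b1* window held CAAAGTCCA on the strand of the gene, its last base lying 59 bases before the start. This string was found in 0.384% of the 32851 RefSeq windows searched, which did not cover every chromosome. The *Hsd3b7* window held CATTCC on the opposite strand, so that it reads GGAATG below, its last base lying 11 bases before the start. Of the windows searched, 12.6% held it. AAGGTCA was in none of the 6 member windows and in 4.08% of the windows searched. A match is a description of the letters and not a measured site. The windows with a match are shown because *Cyp8b1* is the gene of the neutral route that fell and *Hsd3b7* the member with the TEAD core, with the match in capitals, at chr9:121916306-121916555 on the minus strand and chr7:127800359-127800608 on the plus strand.
Cyp8b1: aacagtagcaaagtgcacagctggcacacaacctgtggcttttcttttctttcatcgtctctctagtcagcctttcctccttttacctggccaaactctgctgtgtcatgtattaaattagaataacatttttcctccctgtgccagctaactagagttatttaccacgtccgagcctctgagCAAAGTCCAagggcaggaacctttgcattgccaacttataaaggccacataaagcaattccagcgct
Hsd3b7: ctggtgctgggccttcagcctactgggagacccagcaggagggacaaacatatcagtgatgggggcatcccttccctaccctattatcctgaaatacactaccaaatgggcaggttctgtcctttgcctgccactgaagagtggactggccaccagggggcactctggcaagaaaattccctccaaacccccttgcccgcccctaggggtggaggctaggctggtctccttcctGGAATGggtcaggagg

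*Yap1* itself, measured as a check of the labels, was 22.99 to 34.9 TPM in the 6 WT livers and 0.99 to 3.11 TPM in the 6 KO livers (log2 difference -3.36, adjusted p = 4.95e-09 by limma). Estimated depth was 24700000 to 35100000 reads per library, and the member values rested on an estimated 200 reads (*Cyp7b1*, the lowest KO library) or more. The scale matters for small differences. Over the 12278 genes tested, the median KO minus WT difference was 0.35 on the log2(TPM + 1) scale as deposited and -0.03 after median-of-ratios rescaling, which sets a typical gene to no change. Called genes were 6153 higher and 592 lower as deposited (91.2% higher) but 2612 higher and 2208 lower after rescaling (54.2% higher). The both-sex difference of each member is therefore given on both scales below; a value not said to be rescaled is from TPM as deposited. Summed hepatocyte markers overlapped between the genotypes (88951 to 118288 TPM in WT, 92523 to 114004 in KO), and these sums were mostly *Alb*, at 70630 ± 12751 TPM in WT and 58427 ± 10061 TPM in KO (SD, n = 6). Of the 8 hepatocyte markers 3 were higher and 1 lower as deposited (median 0.13), and 1 higher and 2 lower after rescaling (median -0.32). Macrophage markers rose in 6 of 6 (summed 60.9 to 195.8 TPM in WT, 301 to 614 in KO), stellate cell markers in 5 of 7 (58.6 to 165 TPM, 174 to 418), and pericentral hepatocyte markers fell in 5 of 6 (7982 to 12487 TPM, 2772 to 4565), while of 6 periportal markers 1 rose and 2 fell. After rescaling the calls were 6 of 6 macrophage markers higher, 4 stellate markers higher and 1 lower, 6 of 6 pericentral markers lower, and 1 periportal marker higher and 3 lower. The periportal *Cyp2f2* fell the most of its list, from 1191 ± 341 to 109.9 ± 33.2 TPM (-3.43; rescaled -3.89). Of 3 tested neutrophil markers 2 were called higher as deposited and 0 after rescaling, of 4 lymphocyte markers 1 was higher on both scales, and of 5 endothelial markers 1 was higher and 1 lower as deposited, and 0 higher and 1 lower after rescaling. Of 7 bile duct markers 4 could be tested; 2 rose and 1 fell, and the sum (27.8 to 58.5 TPM in WT, 252 to 713 in KO) was mostly *Spp1*, with *Krt19* at 1.37 ± 0.64 TPM in WT and 1.24 ± 0.73 in KO (SD, n = 6). The part of these shifts in the results below was not tested, and in whole liver fewer cells of a type and less RNA per cell cannot be told apart.

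With both sexes together, the hydroxylases *Cyp8b1* and *Cyp7b1* fell in KO livers by 6.37-fold and 19.4-fold in mean TPM, and *Slc27a5*, which activates bile acids for conjugation, fell by 1.42-fold. *Akr1d1* and *Acox2* were called higher on the deposited scale only. *Cyp7a1* was called in males and not in females. At an adjusted p under 0.05, 2 of the 10 members were higher and 3 lower as deposited, where 50.1% of all tested genes were higher and 4.82% lower. After rescaling 0 were higher and 7 lower, where 21.3% of all genes were higher and 18% lower. The median member difference was -0.17 as deposited, beside 0.35 for all genes, and -0.63 after rescaling, beside -0.03. All 6 KO libraries lay on one side of all 6 WT libraries for 3 of 10 members (*Cyp8b1*, *Cyp7b1* and *Slc27a5*), and for 30.6% of all tested genes. The 2 higher calls are the least firm: the count was 1 without any 1 of 7 single libraries and 0 without the 20 most abundant genes or without sex in the model.

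*Cyp7a1* (ENSMUSG00000028240, chromosome 4, 6265612 to 6275633 in GENCODE on GRCm38, minus strand), which encodes the rate-limiting enzyme of the neutral route, had KO minus WT differences of opposite sign in the 2 sexes. In WT males it was 6.05, 5.02 and 36.7 TPM, and in WT females 164, 117 and 111 TPM. In KO males it was 39.6, 106 and 66.5 TPM, and in KO females 85.9, 46.6 and 86.0 TPM. All KO males were above all WT males, all KO females were below all WT females, and the KO groups of the 2 sexes overlapped. In males the KO minus WT difference was 2.51 ± 0.57 (log2, standard error; adjusted p = 0.00381), and 1.98 after rescaling (adjusted p = 0.0209), where the male groups overlapped. As deposited it was 3.35 without WT male replicate 3, and 1.98 to 3.35 over all alternatives. In females it was -0.87 ± 0.57 (adjusted p = 0.27) and -1.20 after rescaling (adjusted p = 0.132). With both sexes together it was 0.82 ± 0.61 (adjusted p = 0.266) and 0.39 after rescaling (adjusted p = 0.631), and it ranged from 0.39 to 1.14 over all alternatives (adjusted p of 0.12 to 0.631). Mean levels were 73.2 ± 66.3 TPM in WT and 71.8 ± 25.6 TPM in KO (SD, n = 6). The difference between the sexes in the genotype effect was 3.37 ± 0.81 but missed the threshold (adjusted p = 0.099), and passed it only without WT male replicate 3 (4.22, adjusted p = 0.000487), the library at 36.7 TPM.

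The clock output gene *Dbp*, whose level swings widely over the day in liver, also differed between these libraries. It was 0.74, 1.15 and 206 TPM in WT males, 188.5, 213 and 175 TPM in WT females, 1.91, 46.0 and 1.31 TPM in KO males and 10.6, 0.96 and 33.4 TPM in KO females. The WT male with the high *Dbp* value was the WT male with the highest *Cyp7a1*, and in WT males and WT females together the 2 libraries with *Dbp* under 2 TPM were the 2 with the lowest *Cyp7a1*. The 3 KO libraries with *Dbp* under 2 TPM had higher *Cyp7a1* than these, at 39.6 and 66.5 TPM in males and 46.6 TPM in a female. *Nr1d1*, another clock gene, was 64.9, 54.6 and 65.2 TPM in WT males and 36.5, 44.5 and 119 TPM in WT females, with no drop in the 2 WT males of low *Dbp*. In KO males it was 37.0, 88.3 and 5.44 TPM and in KO females 48.3, 28.1 and 109 TPM, in the order of *Dbp* within each KO sex. The part of collection time in the *Cyp7a1* differences was not tested.

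*Cyp8b1* (ENSMUSG00000050445, chromosome 9, 121914356 to 121916305, minus strand, 1 exon), whose promoter window is shown above, fell in KO livers of both sexes. It was 115, 210 and 190 TPM in WT males and 180, 163 and 294 TPM in WT females. In KO males it was 33.7, 29.0 and 12.5 TPM, and in KO females 27.9, 40.7 and 37.4 TPM. Every KO library was below every WT library, and the WT mean of 192.2 ± 59.5 TPM was 6.37 times the KO mean of 30.2 ± 9.94 TPM (SD, n = 6). The difference was -2.66 ± 0.24 (adjusted p = 1.33e-06) and -3.10 after rescaling (adjusted p = 2.91e-06). It was -2.80 in males (adjusted p = 5.71e-05) and -2.52 in females (adjusted p = 0.000157), and the effects of the 2 sexes were not shown to differ (interaction -0.27 ± 0.49, adjusted p = 0.881).

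*Cyp27a1* (ENSMUSG00000026170, chromosome 1, 74713574 to 74737892, plus strand), the mitochondrial enzyme that opens the acidic route, was the second most abundant member in each group. It was 395, 380 and 462 TPM in WT males, 331, 388 and 502 TPM in WT females, 328, 381 and 290 TPM in KO males and 242, 347 and 366 TPM in KO females. The genotypes overlapped as deposited. The difference of -0.33 ± 0.13 lay at the threshold (adjusted p = 0.0501). It passed without the 20 most abundant genes (-0.41, adjusted p = 0.0213) and without any 1 of WT female replicate 1, WT male replicate 2, KO male replicate 2, or KO female replicate 2 or 3 (adjusted p of 0.0326 to 0.0488). After rescaling it was -0.79 (adjusted p = 0.00163), with all KO libraries below all WT libraries.

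*Cyp7b1* (ENSMUSG00000039519, chromosome 3, 18071950 to 18243338, minus strand), which hydroxylates oxysterols in the acidic route and is known for higher expression in male than in female mouse liver, fell in KO livers of both sexes, most of the 10 members in males but less than *Cyp8b1* in females. It was 326, 515 and 371 TPM in WT males and 38.9, 40.5 and 68.8 TPM in WT females. In KO livers it was 11.0, 12.5 and 10.9 TPM in males and 10.5, 13.9 and 11.4 TPM in females. The 3 levels were thus separate, WT males above WT females above all KO libraries, and the KO sexes overlapped. The WT mean was 35.2 times the KO mean in males and 4.14 times in females. The difference was -5.00 ± 0.22 in males (adjusted p = 1.17e-08) and -1.92 ± 0.22 in females (adjusted p = 4.05e-05), or -5.54 and -2.24 after rescaling. With both sexes together it was -3.46 ± 0.45 (adjusted p = 2.91e-05) and -3.89 after rescaling (adjusted p = 4.36e-05). The fall was larger in males (male minus female effect -3.08 ± 0.32, adjusted p = 0.000122), and *Cyp7b1* was the 1 member of 10 called for the interaction, where 0.912% of all genes were.

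**Figure D1:**
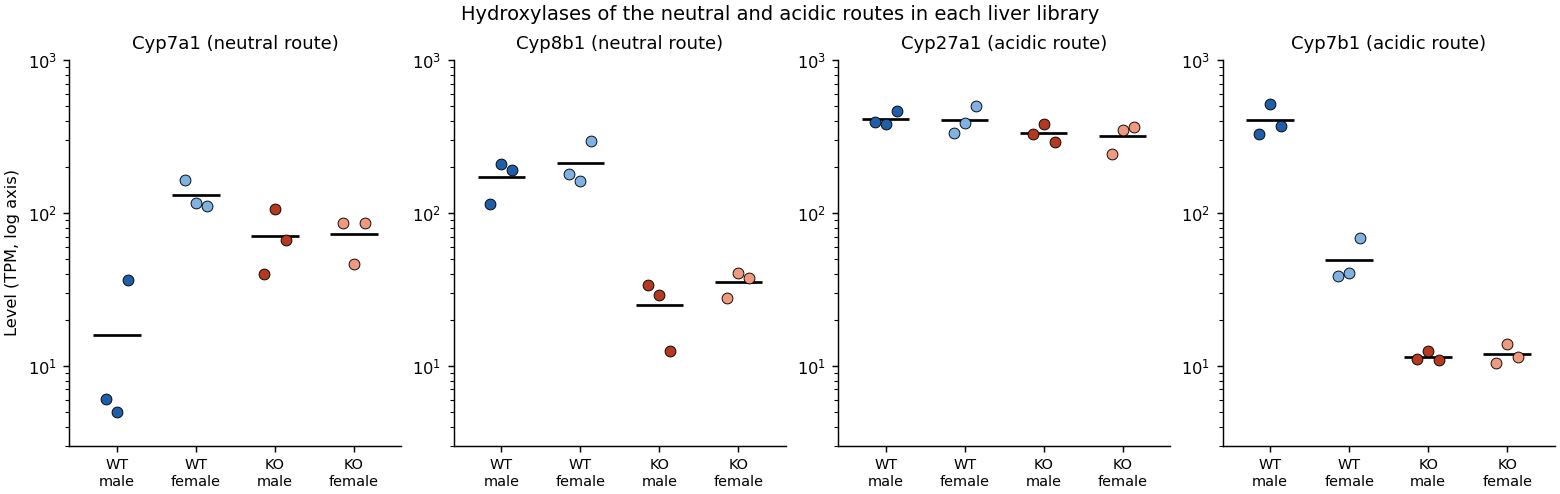
Levels of the 4 route hydroxylases in TPM on a log axis, with 1 point for each library and a horizontal line at the mean of each group of 3. *Cyp8b1* and *Cyp7b1* are lower in all 6 KO libraries than in any WT library, *Cyp7a1* is lowest in WT males (5.02 to 36.7 TPM), and *Cyp27a1* overlaps between the genotypes.

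Transcript levels of the route enzymes were compared as log2 ratios within a library, with 1 TPM added to both quantities. No test was made on these ratios. In WT livers *Cyp8b1* exceeded *Cyp7a1*, with a mean log2 ratio of 3.84 ± 1.40 in males and 0.67 ± 0.65 in females (SD, n = 3). In KO livers the order was the other way, at -1.46 ± 1.10 in males and -0.99 ± 0.72 in females. All 6 WT libraries lay above 0 (lowest 0.14) and all 6 KO libraries below it (highest -0.19). Within the acidic route, *Cyp7b1* was near the level of *Cyp27a1* in WT males (log2 ratio -0.05 ± 0.42) and far below it in WT females (-3.05 ± 0.19), KO males (-4.74 ± 0.11) and KO females (-4.61 ± 0.25).

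Summed by route, the neutral enzymes *Cyp7a1* and *Cyp8b1* together were 187.8 ± 58.0 TPM in WT males, 343 ± 63.1 in WT females, 95.8 ± 34.2 in KO males and 108 ± 18.7 in KO females. The acidic enzymes *Cyp27a1* and *Cyp7b1* together were 817 ± 87.9, 457 ± 103, 344 ± 46.3 and 331 ± 68.2 TPM in the same order. The log2 ratio of neutral to acidic sums was -2.16 ± 0.36 in WT males and -0.40 ± 0.27 in WT females, -1.88 ± 0.33 in KO males and -1.60 ± 0.45 in KO females. On this ratio the WT sexes were separate, and both KO groups overlapped the WT males and lay below the WT females. The conjugation enzymes *Slc27a5* and *Baat* together were 909 ± 46.8 TPM in WT males, 1043 ± 121 in WT females, 793 ± 65.3 in KO males and 722 ± 63.3 in KO females. Relative to the neutral sum they were at a log2 ratio of 2.32 ± 0.50 and 1.61 ± 0.25 in WT males and females and 3.09 ± 0.46 and 2.74 ± 0.33 in KO. A sum of TPM weights the more abundant gene, so the acidic sum in the 3 groups with low *Cyp7b1* was mainly *Cyp27a1*. Because CYP27A1 also acts in the neutral route, the neutral to acidic ratio is no measure of the flow through the routes.

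**Figure D2:**
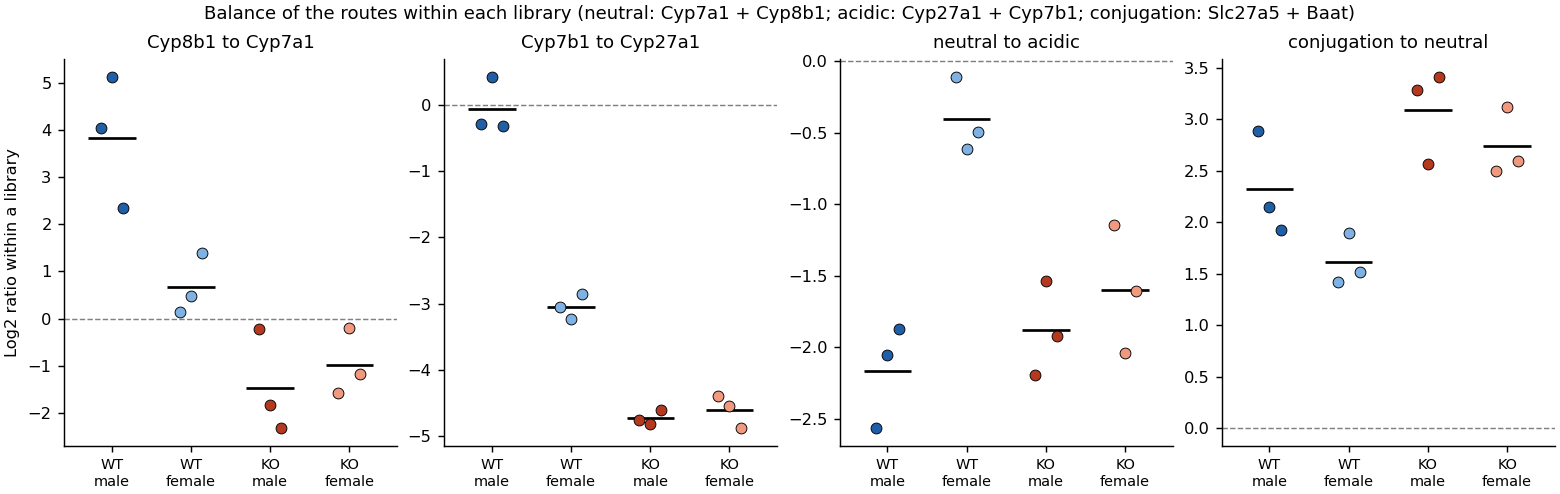
Log2 ratios within each library (1 TPM added to both quantities), with 1 point for each library, a line at the group mean and a dashed line where the 2 quantities are equal; neutral is *Cyp7a1* plus *Cyp8b1*, acidic *Cyp27a1* plus *Cyp7b1*, and conjugation *Slc27a5* plus *Baat*. *Cyp8b1* exceeds *Cyp7a1* in all 6 WT libraries and is below it in all 6 KO libraries, and the neutral to acidic ratio separates WT males from WT females.

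Of the shared later steps, *Akr1d1* and *Acox2* were called higher as deposited, and *Hsd3b7* and *Amacr* were called lower after rescaling. *Akr1d1* (ENSMUSG00000038641, chromosome 6, 37530173 to 37568815, plus strand) encodes the reductase that sets the bent ring shape of bile acids. It was 96.5, 78.2 and 92.6 TPM in WT males, 146, 152 and 185 TPM in WT females, 163, 151 and 204 TPM in KO males and 145, 182 and 162 TPM in KO females. WT males were below all other libraries, and the remaining 3 groups overlapped. In males the KO minus WT difference was 0.94 ± 0.16 (adjusted p = 0.000536). After rescaling it was 0.38 (adjusted p = 0.0998), still with no overlap between the male groups. In females it was 0.02 ± 0.16 (adjusted p = 0.945). With both sexes it was 0.48 ± 0.17 (adjusted p = 0.0262) and 0.03 after rescaling (adjusted p = 0.901), and the call was lost without any 1 of 5 single male libraries (adjusted p of 0.0522 to 0.0623).

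*Acox2* (ENSMUSG00000021751, chromosome 14, 8225511 to 8259353, minus strand), the peroxisomal oxidase of the side chain, was 129, 120 and 89.0 TPM in WT males and 51.7, 60.3 and 93.7 TPM in WT females. In KO livers it was 140, 127 and 130 TPM in males and 88.1, 135 and 132 TPM in females. The genotypes overlapped in each sex. The difference in females was 0.80 ± 0.23 (adjusted p = 0.0167), but 0.46 after rescaling (adjusted p = 0.231), and the call was lost without WT female replicate 1 or 2 or KO female replicate 2 or 3 (adjusted p of 0.0606 to 0.0800). In males it was 0.25 ± 0.23 (adjusted p = 0.377). With both sexes it was 0.52 ± 0.17 (adjusted p = 0.021) and 0.07 after rescaling (adjusted p = 0.812), and without WT female replicate 1 or KO female replicate 3 the adjusted p was 0.0507 or 0.0520.

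*Hsd3b7* (ENSMUSG00000042289, chromosome 7, 127800604 to 127803802, plus strand), which oxidises the sterol ring in both routes, was 394, 222 and 332 TPM in WT males, 225, 258 and 399 TPM in WT females, 226, 288 and 195 TPM in KO males and 261, 231 and 254 TPM in KO females. Its annotation overlaps the protein-coding gene model *Gm49388* on the same strand, so its reads could have been split. The difference was -0.30 ± 0.17 (adjusted p = 0.15) and -0.75 after rescaling (adjusted p = 0.00484), and the genotypes overlapped on both scales. *Amacr* (ENSMUSG00000022244, chromosome 15, 10981756 to 10996626, plus strand), the racemase that turns the side chain to the form the peroxisomal oxidase accepts, ranged from 62.4 to 110 TPM in WT and from 75.6 to 111 TPM in KO. Its difference was -0.05 ± 0.15 (adjusted p = 0.796) and -0.50 after rescaling (adjusted p = 0.0113).

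The conjugation enzymes differed from each other. *Slc27a5* (ENSMUSG00000030382, chromosome 7, 12988346 to 12998192, minus strand), the bile acyl-CoA synthetase, was the most abundant member in every group. It was 650, 740 and 680 TPM in WT males, 735, 854 and 966 TPM in WT females, 513, 556 and 627 TPM in KO males and 446, 555 and 551 TPM in KO females. Every KO library was below every WT library, with a WT mean 1.42 times the KO mean. The difference was -0.50 ± 0.12 (adjusted p = 0.003) and -0.96 after rescaling (adjusted p = 4.35e-05). It passed the threshold in females (-0.72 ± 0.15, adjusted p = 0.00269). In males it was -0.29 ± 0.15 (adjusted p = 0.124) and passed only after rescaling (-0.86, adjusted p = 0.00339). The sexes were not shown to differ (interaction 0.43 ± 0.21, adjusted p = 0.597). *Baat* (ENSMUSG00000039653, chromosome 4, 49489422 to 49506557, minus strand), the transferase that adds the amino acid, was 250, 219 and 186.4 TPM in WT males, 187.2, 190.97 and 197 TPM in WT females, 210, 248 and 225 TPM in KO males and 203, 209 and 200.3 TPM in KO females. Its difference was 0.08 ± 0.09 (adjusted p = 0.478) as deposited and -0.37 after rescaling (adjusted p = 0.0159), so its sign depends on the scale.

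**Figure D3:**
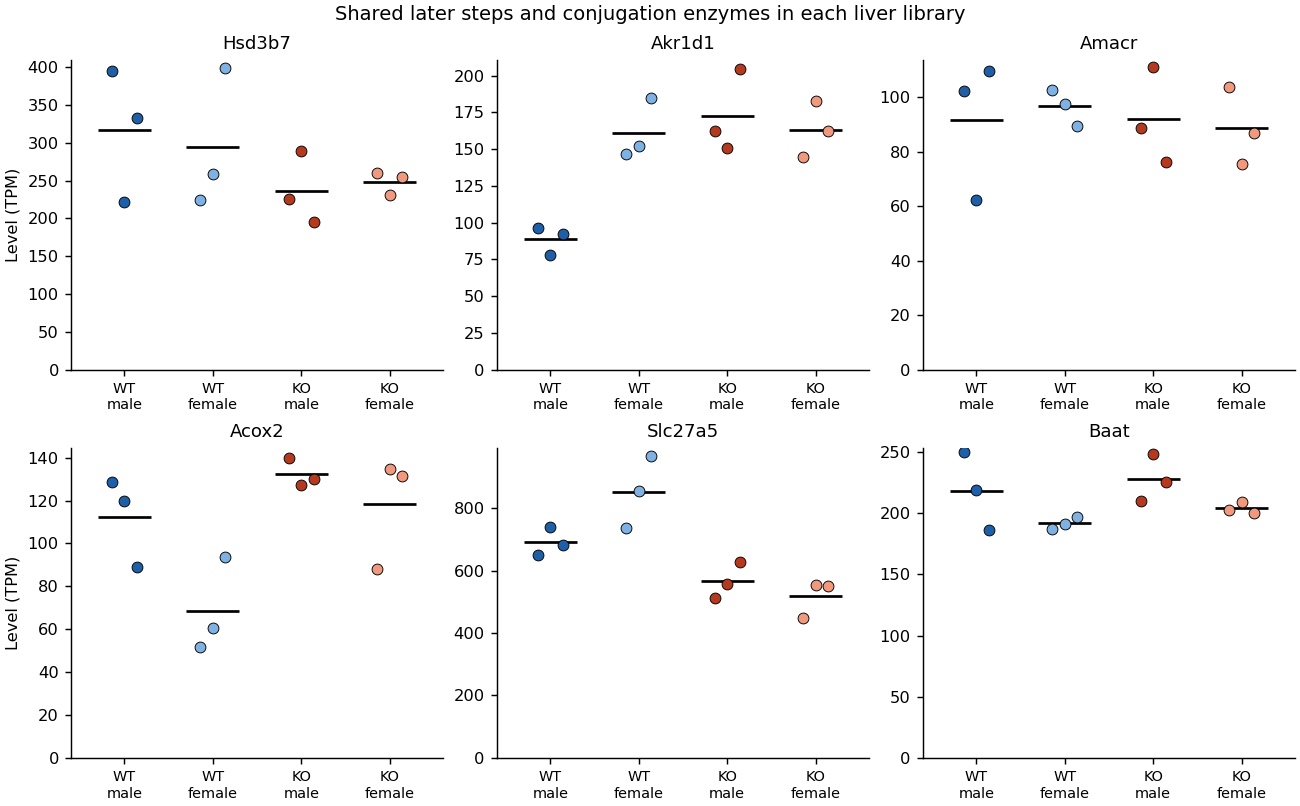
Levels of the 4 shared later enzymes and the 2 conjugation enzymes in TPM on linear axes from 0, with 1 point for each library and a line at each group mean. *Slc27a5* is lower in all 6 KO libraries than in any WT library, and *Akr1d1* is lowest in the 3 WT males (78.2 to 96.5 TPM).

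By limma, a difference between the sexes was called for 3 of 10 members in WT livers and for 0 in KO livers. In WT, *Cyp7b1* was higher in males by 3.03 ± 0.22 (adjusted p = 2.20e-06), an 8.18-fold ratio of means, where 1.14% of all genes were higher in males. *Cyp7a1* was lower in WT males (male minus female -3.47 ± 0.57, adjusted p = 0.0034). Over all alternatives it ranged from -4.31, without WT male replicate 3, to -2.99. That library was the WT male with the high *Dbp* value, and the part of collection time was not tested. *Akr1d1* was lower in WT males too (-0.85 ± 0.16, adjusted p = 0.00805). Of all genes, 4.6% were lower in males. All 3 calls were also made after rescaling. *Acox2* missed the threshold (0.74 ± 0.23, adjusted p = 0.079) but passed it without WT male replicate 3 or WT female replicate 3 (adjusted p = 0.0323 and 0.0278). In KO livers limma called 0 of 10 members, where 0.0814% of all genes were called. At an unadjusted p under 0.05 it was 0 of 10 too, where 655 of the 12278 genes passed. With shares this low, 0 of 10 does not set the members apart from other genes. There the male minus female differences of the 3 members that differed in WT were -0.10 ± 0.57 (*Cyp7a1*, adjusted p = 0.978), -0.05 ± 0.22 (*Cyp7b1*, adjusted p = 0.972) and 0.08 ± 0.16 (*Akr1d1*, adjusted p = 0.941). The test of the change in sex difference between genotypes is the interaction, which was called for *Cyp7b1* and was 0.92 ± 0.22 with an adjusted p of 0.107 for *Akr1d1*.

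Within males 2 of 10 members were higher in KO (*Cyp7a1* and *Akr1d1*) and 2 lower (*Cyp8b1* and *Cyp7b1*), where 43.3% of all genes were higher and 2.81% lower. Within females 1 was higher (*Acox2*) and 3 lower (*Cyp8b1*, *Cyp7b1* and *Slc27a5*), where 29.1% of all genes were higher and 4.68% lower. After rescaling the counts were 1 higher and 6 lower in males, where 14.1% of all genes were higher and 9.84% lower. In females they were 0 higher and 4 lower, where 15.4% of all genes were higher and 10.6% lower. *Cyp8b1* and *Cyp7b1* were called lower in both sexes on both scales.

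**Figure D4:**
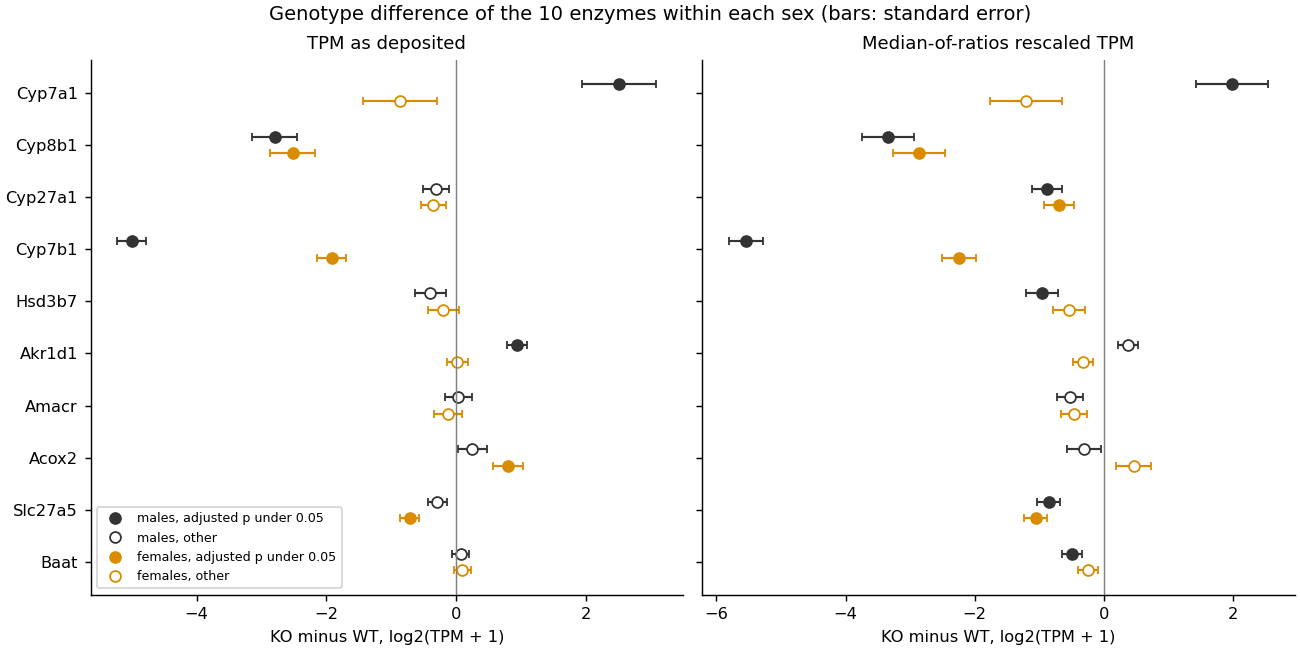
KO minus WT difference of each enzyme on the log2(TPM + 1) scale, in males and females, with standard errors, from TPM as deposited (left) and after median-of-ratios rescaling (right); filled points have an adjusted p under 0.05. *Cyp7a1* lies on opposite sides of 0 in the 2 sexes, *Cyp7b1* is -5.00 in males and -1.92 in females as deposited, and most members lie further to the left after rescaling.

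Ranked by mean TPM, *Slc27a5* was first and *Cyp27a1* second in every group, and their ranges did not overlap in any. *Cyp7b1* ranked 3 of 10 in WT males, where its range overlapped those of its neighbours *Cyp27a1* and *Hsd3b7*, and 10 of 10 in the other groups, where in WT females its range overlapped that of *Acox2*. *Cyp7a1* ranked 10 in WT males, clear of *Akr1d1* above it, 7 in WT females, where its range overlapped that of *Akr1d1*, and 8 in both KO groups, where its range overlapped that of *Amacr*. *Akr1d1* ranked 9 in WT males, 6 in WT females and 5 in both KO groups, *Acox2* 7, 9 and 6, and *Cyp8b1* 6, 4 and 9. In KO males the lowest 2 members, *Cyp8b1* and *Cyp7b1*, overlapped with each other, and in KO females they did not.

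The genes with the most similar pattern over the 12 libraries were ranked by Pearson's r of log2(TPM + 1), which reflects the shared differences between the groups and is given as a description. For *Cyp7a1* they were *Bid* (r = 0.951), *Cbx7* (0.944) and *Dll1* (0.942). For *Cyp8b1* they were *Npr2* (0.954), *Mup19* (0.948) and *Serpina1d* (0.944), and for *Cyp27a1* *Fbxo31* (0.872), *Klf15* (0.866) and *Tle1* (0.833). For *Cyp7b1* they were *Mup1*, *Hsd3b5* and *Mup12*, each at 0.987. *Mup1* went from 1398 TPM in WT males and 23.2 in WT females to 0.85 in KO males, and was listed at 0 in KO females. *Hsd3b5* went from 305 and 15.8 TPM to 0.44 and 0.28 TPM. *Mup* and *Serpina1* genes have near-identical copies that can share reads, so values of single copies are uncertain. Among the members themselves, *Cyp7b1* and *Akr1d1* ran most strongly against each other (r = -0.861), and *Cyp8b1* ran most closely with *Slc27a5* (0.799) and *Cyp7b1* (0.780).

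Other genes of the pathway were taken from 3 lists, whose counts stand beside 50.1% of all tested genes higher and 4.82% lower as deposited, and 21.3% and 18% after rescaling. Of 17 tested genes for other synthesis steps, 2 were higher and 4 lower (2 and 9 after rescaling), with a median difference of -0.15 (-0.61 after rescaling). *Ephx1*, an epoxide hydrolase of the liver, rose from 298 ± 65.7 to 857 ± 108 TPM (SD, n = 6; log2 1.54, adjusted p = 1.09e-06; rescaled 1.08, adjusted p = 0.000211). *Slc27a2*, the synthetase that activates the bile acid precursors for side-chain shortening, fell from 726 ± 107 to 397 ± 58.3 TPM (-0.87, adjusted p = 8.26e-05; rescaled -1.32). *Abcd3*, the peroxisomal transporter of these precursors, fell from 269 ± 24.5 to 156 ± 22.0 TPM (-0.79, adjusted p = 5.38e-05; rescaled -1.24). Neither overlapped between the genotypes. *Hsd17b4*, a peroxisomal enzyme of the side chain, was also called lower (-0.36, adjusted p = 0.00525; rescaled -0.81). The hydroxylases *Ch25h* and *Cyp46a1* were low: *Ch25h* rose from 0.06 to 1.00 TPM (0.87, adjusted p = 0.000218) and *Cyp46a1* fell from 2.31 to 0.35 TPM (-1.12, adjusted p = 0.0017). *Cyp39a1*, an oxysterol hydroxylase, was 14.8 ± 8.31 TPM in WT and 9.17 ± 2.33 in KO (-0.49, adjusted p = 0.0624; rescaled -0.90, adjusted p = 0.00388), and was lower in KO females (-1.04, adjusted p = 0.0027). *Cyp2c70*, which makes muricholic acids, was 691 ± 161 TPM in WT and 746 ± 99.98 in KO (0.13, adjusted p = 0.429; rescaled -0.32, adjusted p = 0.139). *Scp2*, whose product includes the thiolase of side-chain shortening, was 2762 ± 170 TPM in WT males, 952 ± 150.04 in WT females, 1787 ± 204 in KO males and 1375 ± 39.1 in KO females (SD, n = 3). It was the 1 gene of the 3 lists called for the interaction (-1.17 ± 0.21, adjusted p = 0.0169; rescaled -1.40, adjusted p = 0.0118), lower in KO males (-0.63, adjusted p = 0.00462) and higher in KO females (0.54, adjusted p = 0.0135), the latter not after rescaling (0.20, adjusted p = 0.421).

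For the supply of taurine, the amino acid that mice mostly use for conjugation, 2 of 3 tested genes were higher and 0 lower (2 and 1 after rescaling). *Csad*, an enzyme of taurine synthesis, was 39.4, 63.6 and 124 TPM in WT males and 29.1, 41.1 and 85.6 TPM in WT females. It was 173, 254 and 146 TPM in KO males and 183, 195 and 227 TPM in KO females, above all WT libraries (1.76 ± 0.29, adjusted p = 0.000236; rescaled 1.31, adjusted p = 0.00516). *Slc6a6*, the taurine transporter, rose from 29.0 ± 4.75 to 55.7 ± 14.7 TPM (0.90, adjusted p = 0.000334; rescaled 0.45, adjusted p = 0.0206). *Cdo1*, which starts the making of taurine from cysteine, was 1426 ± 419 TPM in WT and 1344 ± 217 in KO (-0.06, adjusted p = 0.762; rescaled -0.52, adjusted p = 0.042).

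Of 19 regulators, 4 were higher and 1 lower as deposited, where 50.1% and 4.82% of all genes were, and 1 was higher and 7 lower after rescaling, where 21.3% and 18% were. *Ppara*, the fatty acid receptor that controls many peroxisomal genes, fell from 39.1 ± 12.3 to 15.3 ± 3.68 TPM (-1.27, adjusted p = 0.000257; rescaled -1.70). *Fgfr4*, the receptor for the signal from the gut, rose from 23.7 ± 3.93 to 41.7 ± 6.16 TPM (0.79, adjusted p = 0.000194; rescaled 0.35, adjusted p = 0.0299). Its partner *Klb* was 15.4 ± 4.84 TPM in WT and 11.9 ± 1.88 in KO (-0.31, adjusted p = 0.148; rescaled -0.73, adjusted p = 0.00438). *Nr1h4*, the bile acid receptor, was 89.7 ± 31.9 and 67.1 ± 11.1 TPM (-0.34, adjusted p = 0.158; rescaled -0.79, adjusted p = 0.00217). By sex it was 64.7 ± 21.9 TPM in WT males and 115 ± 13.9 in WT females, and 67.1 ± 14.0 and 66.95 ± 10.5 TPM in KO (SD, n = 3), called lower in females (-0.77, adjusted p = 0.0215) and not in males (0.09, adjusted p = 0.773). Its target *Nr0b2* was 68.4 ± 23.4 and 47.8 ± 9.85 TPM (-0.47, adjusted p = 0.0665; rescaled -0.91, adjusted p = 0.00598). It was called lower in KO males (-0.84, adjusted p = 0.0183) and not in females (-0.09, adjusted p = 0.811), and the interaction was not called for either gene (adjusted p = 0.464 for *Nr1h4* and 0.591 for *Nr0b2*). *Nr5a2*, which activates *Cyp8b1*, was 22.5 ± 4.70 and 24.3 ± 3.61 TPM (0.12, adjusted p = 0.412; rescaled -0.32, adjusted p = 0.0791). *Nr1i2*, the pregnane X receptor, and *Mafg*, a repressor that bile acids induce, were called higher as deposited (0.65, adjusted p = 0.00258, and 0.37, adjusted p = 0.0451) and not after rescaling (0.20 and -0.07). So was *Hnf4a*, at 217 ± 34.5 TPM in WT and 274 ± 43.0 in KO (0.33, adjusted p = 0.0154; rescaled -0.12, adjusted p = 0.475).

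**Figure D5:**
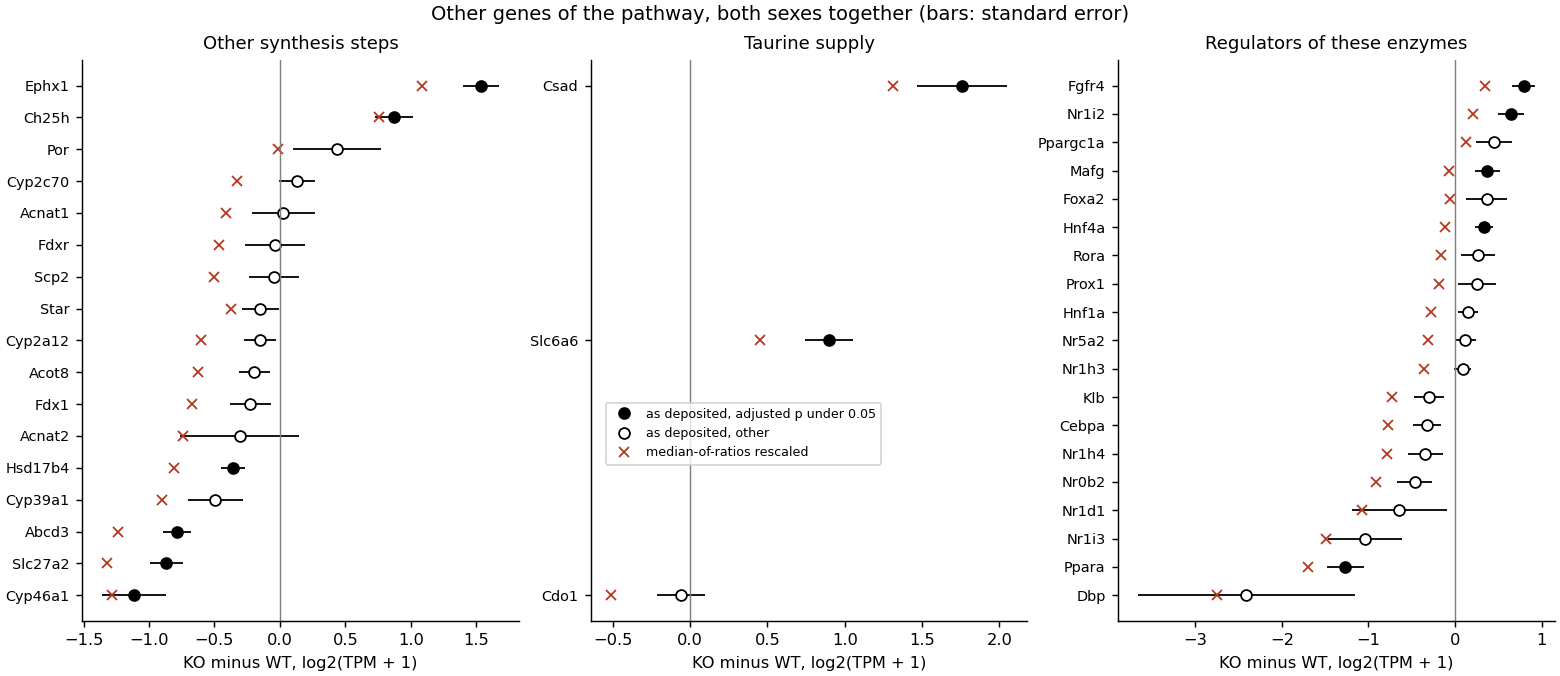
KO minus WT difference with both sexes together on the log2(TPM + 1) scale for the tested genes of 3 lists, as deposited (circles with standard errors, filled where the adjusted p is under 0.05) and after median-of-ratios rescaling (crosses). *Ephx1* (1.54) and *Csad* (1.76) lie furthest to the right of their lists and *Cyp46a1* (-1.12) furthest to the left of its list, and *Dbp* has the widest error.

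The authors' deposited table gives a KO against WT log2 fold change of its own, with a false discovery rate printed to 2 decimals. How that comparison was made, and from which libraries, is not given in the sources used here. In the authors' deposited table *Cyp7b1* is at -5.13, *Cyp8b1* at -3.11, *Slc27a5* at -1.05, *Cyp27a1* at -0.93 and *Hsd3b7* at -0.84. *Cyp7a1* is at 2.06 with a false discovery rate of 0 in the authors' deposited table, where the difference computed here was 0.82 with both sexes, 2.51 in males and -0.87 in females, or 0.39, 1.98 and -1.20 after rescaling. *Baat* is at -0.57 (false discovery rate 0.03), *Amacr* at -0.45 (0.13), *Acox2* at -0.38 (0.27) and *Akr1d1* at 0.11 (0.79) in the authors' deposited table. With both sexes, *Acox2* had the opposite sign here on both scales (0.52, rescaled 0.07). *Baat* had the opposite sign here as deposited only (0.08, rescaled -0.37).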

How the data were processed

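Liver RNA of 12 mice was sequenced, 1 library per mouse, and the authors deposited 1 table of TPM, each column summing to 1000000 over 25676 genes. The aligner, counter, annotation and use of strand are not given in the sources used here; per the submitters' processing notes the build was GRCm38 and edgeR was used, with no role stated. The log2 fold changes and false discovery rates in the same table are other values, taken as deposited by the authors and read only for comparison. Groups came from the sample titles. Replicate numbers follow accession order and pair no samples, and the labels do not state how the animals of a group were related.

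TPM were analysed as log2(TPM + 1) after keeping the 12278 genes whose mean was 0.5 TPM or more. The tests were two-sided limma tests (limma 3.58.1, R 4.3.3, lmFit and eBayes with trend), adjusted by Benjamini-Hochberg across every gene kept and called under 0.05. The genotype fit had sex as a covariate, and the other comparisons came from 1 model of the 4 group means. Fold changes on this scale understate the change of low genes. Median-of-ratios rescaling, another pseudocount, no filter, leaving out the 20 most abundant genes or each library, no trend, no sex term and a term for animal numbers under 100 were the alternatives. The script was tested on simulated data. Depth was estimated from steps in the low TPM values with GENCODE release M21 exon lengths. Of values of up to 5 reads, 63.4% to 70.8% were whole within 0.1, so the depth is an estimate. Positions are from GENCODE release M21 on GRCm38, which matched 25635 identifiers, and promoter windows from RefSeq on GRCm38.p6.

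All 10 members were named, with *Yap1* as the label check. From the lists of other pathway genes, up to 4 called genes with the largest absolute difference were named, plus *Nr0b2*, *Nr1h4*, *Nr5a2*, *Fgfr4*, *Klb*, *Cyp2c70* and *Abcd3*. For each route hydroxylase the 3 genes of most similar pattern were named. *Dbp*, *Nr1d1*, *Cdo1*, *Hsd17b4*, *Cyp39a1*, *Cyp2f2*, *Scp2* and *Hnf4a* were named after their values were seen. The members and lists were chosen with earlier results of these data known.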

Additional observations from a re-analysis of the deposited data

Results flagged for a closer look

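Within a genotype, 3 single libraries stood far from the other 5 for a member, judged on the log2(TPM + 1) scale. *Cyp8b1* was 12.5 TPM in KO male replicate 3, the lowest of the KO libraries. *Amacr* was 62.4 TPM in WT male replicate 2, the lowest of the WT libraries, and *Acox2* was 88.1 TPM in KO female replicate 1, the lowest of the KO libraries. A total of 20 sets of 6 libraries were examined. For 6 values from a single normal population, chance gives such a gap in about 1 of 20. These sets pool the sexes, which differed for some members, so that rate is only a guide. The genotype effect differed between the sexes for *Cyp7b1*, whose male effect minus female effect was -3.08, and for *Scp2*, where it was -1.17.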

How the results depend on the processing

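Of the 40 member differences given for the comparisons, 17 were past the threshold, 13 of them under every alternative, and 0 of the 17 changed sign. The 4 that lost the call under some alternative were *Akr1d1* and *Acox2* with both sexes, *Akr1d1* in males and *Acox2* in females. With both sexes, 0 members were higher after rescaling, without the 20 most abundant genes or without sex in the model, and 7 were lower after rescaling. Rescaling gave 1 higher and 6 lower in males and 0 higher in females. It turned *Baat* to -0.37 (both sexes), -0.50 (males) and -0.25 (females), *Amacr* in males to -0.53, *Acox2* in males to -0.31 and *Akr1d1* in females to -0.32. Without the 20 most abundant genes, *Amacr* and *Baat* in males were -0.052 and -0.017, and *Akr1d1* in females -0.047. A term for animal numbers under 100 turned the male minus female *Cyp7b1* difference in KO to 0.042, and with no pseudocount the log2 ratio of *Cyp7b1* to *Cyp27a1* in KO males was -4.85. The member differences that changed sign were not past the threshold as deposited, and the cause of each change was not tested.

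Leaving out 1 library at a time gave 1 to 2 members higher with both sexes, 0 to 1 in females, 1 to 2 for WT males against females and 0 to 1 for the interaction. Values that changed sign were *Amacr* with both sexes (-0.17 to 0.0091) and in males (-0.22 to 0.18), *Baat* in males (-0.040 to 0.17), and *Hsd3b7* (-0.37 to 0.043) and *Akr1d1* (-0.066 to 0.12) in females. So did the sex differences in KO of *Cyp7a1* (-0.44 to 0.26), *Cyp7b1* (-0.13 to 0.060) and *Akr1d1* (-0.052 to 0.17), and the log2 ratio of *Cyp7b1* to *Cyp27a1* in WT males (-0.29 to 0.080). The 3 libraries per group limit the precision, and counting error matters most for *Cyp7b1* in KO livers, with an estimated 200 reads at the lowest. No paired analysis was possible because the labels give no replicate numbers and the numbers used follow accession order.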
